A study of Rattus norvegicus with 241 samples.

Results

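Basal mammary epithelial cells of young ACI rats were compared 7 days after a short course of a TGFβ receptor inhibitor had ended. ACI is an inbred rat strain that develops mammary tumours under estrogen. All rats were virgin females, and the TGFBRi group received 75 mg/kg of LY2157299 (galunisertib, an inhibitor of the TGFBR1 kinase) by oral gavage in 2 doses a day for 10 days from about 35 days of age, whereas the vehicle group received the carrier on the same schedule. The members were the bulk RNA-seq libraries labelled as basal cells of the normal ACI experiment at day 7, which gave 6 of the 241 samples of the series, 3 rats with TGFBRi and 3 with vehicle. Each library came from 1 rat, from CD24+CD29high cells sorted by flow cytometry after CD31+ and CD45+ cells had been gated out. The basal libraries of the same experiment at day 0 (6 samples) and day 14 (6 samples) after the last dose, and the luminal libraries of the same 6 rats at day 7, served as comparisons. Single-cell libraries gave levels by cell class: whole glands of 3 virgin SD (outbred) rats on vehicle, dosed from about 24 days of age, and sorted basal cells of 6 virgin ACI rats, 3 with TGFBRi and 3 with vehicle, all at day 0. Cell type was checked against keratins: KRT5, a basal keratin, lay between 14241 and 29449 normalized read counts in the 6 basal libraries and at 147.5 or less in the luminal libraries, while the luminal keratin KRT18 was between 969 and 2845 in basal and at 27784 or more in luminal cells.

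The libraries held 13447580 to 19094324 reads assigned to genes. Vehicle replicate 3 carried conflicting labels, since its title and treatment field named it a control and its free description a treated animal. It was kept as vehicle, and values without it are given beside many counts of calls, many list medians and some genes. They are not given for the comparison of basal and luminal cells with the rat as a block. The median log2 fold change over all genes, against which the list medians are read, was 0.15 over the 6 rats, 0.04 without vehicle replicate 3, and between 0.02 (without TGFBRi replicate 2) and 0.29 (without vehicle replicate 2) with each rat left out. The 2 libraries with the fewest genes detected were vehicle replicate 3 (12539 genes) and TGFBRi replicate 3 (13239 genes), against 14617 to 15334 in the other 4. A separate feature set 4 of the 18 basal libraries apart. The first principal component over 8771 genes held 61.96% of the variance, and vehicle replicate 3 and TGFBRi replicate 1 at day 7, with 1 library of each treatment at day 14, scored between 0.252 and 0.494, while the other 14 scored 0.0535 or less. The receptor gene ERBB3 is an example, with 96.7 and 150.9 normalized counts in those 2 day 7 libraries against 1146 to 2672 in the other 4. The luminal libraries of the same 2 rats were low as well, at 169.8 and 311.1 against 1587 to 3656. Without these 4 libraries the median over all genes was 0.04.

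Basal cells form the outer layer of mammary ducts, contract through smooth muscle proteins, lay down basement membrane and face the stroma. TGFβ ligands bind TGFBR2, which recruits and phosphorylates TGFBR1, and the kinase of TGFBR1 activates SMAD2 and SMAD3. Many of the genes described here are better known from other cell types of the gland, the fibroblast, which lays down matrix, and the Schwann cell, a glial cell that wraps peripheral nerve fibres and makes myelin from a small set of membrane proteins.

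LGALS4 was the gene that passed the test across all genes. It encodes galectin-4, a galactoside-binding lectin best known from intestinal epithelium. Its normalized counts were 2.20, 7.89 and 4.16 in the vehicle rats and 77.2, 76.8 and 107.6 in the TGFBRi rats, so every treated rat lay far above every vehicle rat. LGALS4 rose 16.5-fold on the log2(value + 1) scale, a log2 fold change of 4.04 with a standard error of 0.57 and a limma adjusted p of 0.0379. It was 1 of 15643 genes tested (0.00639%). The direction held in every alternative, with log2 fold changes from 3.27 to 4.54, but the limma call was kept in 1 of the 6 fits that left out a rat, the one without vehicle replicate 2, and without vehicle replicate 3 the adjusted p was 0.252 at a log2 fold change of 4.03. On the recovered reads DESeq2 gave LGALS4 an adjusted p of 1.23e-07 and edgeR 0.0878. The limma call was also lost with a pseudocount of 0.5, with the day 7 libraries alone and after thinning deeper libraries to the depth of the shallowest day 7 library. In basal cells at day 0 the vehicle rats already held 70.3, 64.4 and 113.2 normalized counts of LGALS4, and at day 14 they held 1.15, 3.30 and 0.718. The treated rats went from 102.7, 229.9 and 274.8 at day 0 to 11.995, 23.5 and 14.3 at day 14. The day 7 vehicle range thus overlapped that of day 14, and the day 7 treated rats lay within the range of the day 0 vehicle rats.

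**Figure D1:**
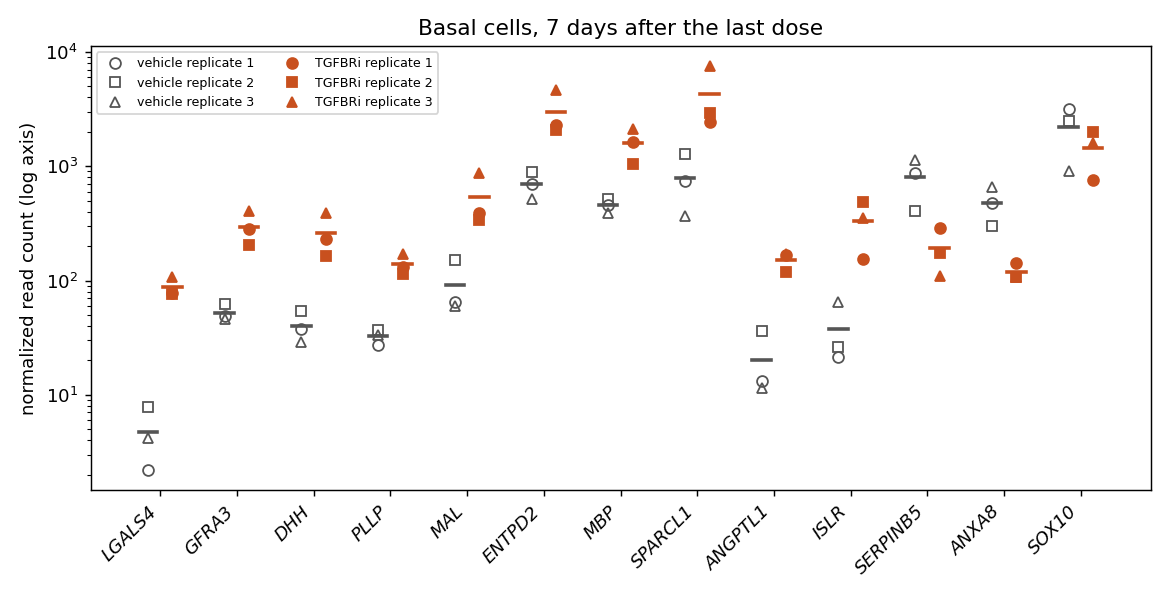
Normalized read counts (log axis) of 13 genes in the 3 vehicle rats (open symbols) and the 3 TGFBRi rats (filled symbols) at day 7, with a short line at each group mean and 1 symbol shape per replicate. The groups are apart in every gene shown but SOX10, with LGALS4 lowest in vehicle (2.20 to 7.89) and SERPINB5 and ANXA8 lower after TGFBRi.

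DESeq2, run on the same 18 basal libraries, called 51 genes higher after TGFBRi at day 7 (0.385% of 13247 with an adjusted p) and 2 lower (0.0151%). Without vehicle replicate 3 it called 20, all higher. Without the 4 libraries apart on the first component, which left 2 rats a group, it called 155 higher (1.60% of 9684) and 72 lower (0.743%), and 39 genes were called in both fits, that is 39 of 53 and 39 of 227. The 10 higher genes with the smallest DESeq2 p-values and a mean of at least 50 normalized counts were GFRA3, DHH, PLLP, ENTPD2, RXRG, GPM6A, ANGPTL1, LDB2, SPARCL1 and MAL. None of them passed limma's threshold, so their differences are given below as values. In simulated data with known answers DESeq2 found more of the changed genes than limma and also made more false calls.

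Because these genes differed in the same direction, the promoter sequences of LGALS4 and of DHH, ENTPD2 and PLLP are shown. They were matched by symbol to RefSeq (GRCr8, a later build than the rn6 build of the counts) and run from 250 bases before to 50 bases after the annotated start, 5′ to 3′ on the strand of the gene. Capitals mark the letters GTGGGCG, a core bound by EGR proteins such as the myelination factor EGR2.
LGALS4, chr1:93252035-93252334, plus strand: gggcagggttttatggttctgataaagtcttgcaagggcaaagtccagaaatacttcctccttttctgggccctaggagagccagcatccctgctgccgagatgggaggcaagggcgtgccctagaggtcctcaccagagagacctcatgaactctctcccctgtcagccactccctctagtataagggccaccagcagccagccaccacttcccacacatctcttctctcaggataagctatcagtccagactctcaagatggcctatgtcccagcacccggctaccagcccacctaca
DHH, chr7:131935303-131935602, minus strand: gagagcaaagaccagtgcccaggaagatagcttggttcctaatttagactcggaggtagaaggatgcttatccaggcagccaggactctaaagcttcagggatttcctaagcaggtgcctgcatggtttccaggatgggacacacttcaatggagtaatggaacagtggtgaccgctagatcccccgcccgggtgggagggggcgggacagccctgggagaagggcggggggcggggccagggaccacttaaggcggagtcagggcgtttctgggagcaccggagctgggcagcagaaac
ENTPD2, chr3:28611566-28611865, plus strand: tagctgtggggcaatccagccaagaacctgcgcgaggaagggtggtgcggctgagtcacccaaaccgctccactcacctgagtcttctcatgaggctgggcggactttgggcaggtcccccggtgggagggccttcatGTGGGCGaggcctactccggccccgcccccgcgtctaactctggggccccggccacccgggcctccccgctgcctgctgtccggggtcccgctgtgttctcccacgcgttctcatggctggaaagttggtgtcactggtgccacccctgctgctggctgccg
PLLP, chr19:10320830-10321129, plus strand: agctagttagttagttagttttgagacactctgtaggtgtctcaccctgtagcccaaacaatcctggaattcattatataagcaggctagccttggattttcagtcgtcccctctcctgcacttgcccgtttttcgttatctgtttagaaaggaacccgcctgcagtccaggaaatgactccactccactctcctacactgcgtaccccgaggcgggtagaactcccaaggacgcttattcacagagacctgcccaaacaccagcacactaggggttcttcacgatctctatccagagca
The 6 genes looked for (the 4 shown, MAL and PMP22) all had an entry. GTGGGCG, searched on both strands, occurred in 1 of the 6, ENTPD2, starting at base 139 of the window, and in 7.67% of 27457 promoters of this length. ACAAAG and ACAATG, cores bound by SOX proteins, occurred on either strand in 0 of the 6 and in 28.6% of all promoters. These are matches of letters within 300 bases.

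GFRA3, the receptor subunit for the neurotrophic ligand artemin, measured 48.5, 62.2 and 45.8 normalized counts in the vehicle rats and 281.1, 206.2 and 402.7 in the TGFBRi rats. The lowest treated rat was above the highest vehicle rat. Its log2 fold change was 2.44 (SE 0.40), with a limma adjusted p of 0.118 and a DESeq2 adjusted p of 8.34e-06. DHH (desert hedgehog), a ligand that Schwann cells secrete to organise the nerve sheath, was at 37.4, 54.4 and 29.1 in vehicle and at 230.4, 164.1 and 388.4 after TGFBRi. The groups did not overlap, and the log2 fold change was 2.62 (SE 0.47) with a DESeq2 adjusted p of 8.71e-05.

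The myelin protein genes MBP, PMP22, PLLP and MAL followed the same order, whereas PRX and NCMAP, given below, overlapped between the groups. MBP, which holds the myelin membranes together, had 456.7, 520.8 and 387.8 normalized counts in vehicle rats against 1626, 1041 and 2121 in treated rats, a log2 fold change of 1.76 (SE 0.40). For PMP22 the vehicle values were 1066, 1431 and 1877 and the treated values 5422, 2553 and 6381. In both genes the lowest treated rat was TGFBRi replicate 2, and it was above the highest vehicle rat. The smaller myelin membrane proteins PLLP (plasmolipin) and MAL were lower in level but equally separated: PLLP had 27.2, 36.8 and 33.3 in vehicle and 130.2, 113.6 and 171.5 after TGFBRi, and MAL had 65.4, 151.7 and 59.3 against 387.1, 341.9 and 877.7. ENTPD2, an enzyme of the cell surface that hydrolyses ATP, measured 699.8, 892.5 and 516.8 in vehicle rats and 2296, 2055 and 4610 in treated rats, with a log2 fold change of 2.02 (SE 0.39) and a DESeq2 adjusted p of 0.000372.

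A list of 30 Schwann cell genes was read beside these, of which 28 were in the table and all 28 were tested. It includes GFRA3, DHH, MBP, PMP22, PLLP and MAL and was chosen with earlier results of these data known. Its counts therefore describe the list and are not independent evidence of its direction. At an unadjusted limma p under 0.05, 19 were higher after TGFBRi and 0 lower, where 4.70% of all genes were higher and 0.869% lower. In 15 of the 28 every treated rat was above every vehicle rat (7.90% of all genes), and in 0 it was the reverse (3.03%). DESeq2 called 9 of the 28, all higher, where it called 0.385% of all genes with an adjusted p higher. The median log2 fold change of the list was 1.76, beside 0.15 over all genes tested, and 27 of 28 were above 0 (58.7% of all genes) and 1 below (41.2%). The exception was SOX10, the transcription factor that specifies Schwann cells and that basal cells of the gland also express, at 3188, 2493 and 909.8 in vehicle and 761.6, 1977 and 1588 after TGFBRi. ERBB3, NGFR, PRX, KCNA1 and NCMAP also overlapped between the groups. As a share of all normalized counts the 28 genes made up 0.0474% to 0.131% in vehicle and 0.152% to 0.363% in treated rats, a ratio of means of 2.44 with an exact two-sided permutation p of 0.1, the smallest that 3 against 3 rats allow.

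The list median depended on which libraries were set against each other. With each rat left out in turn it ranged from 1.41 (without vehicle replicate 3) to 1.98. Without the 4 libraries apart on the first component it was 1.74, with 27 of 28 genes above 0. DESeq2 then called 14 of the 24 list genes that had an adjusted p, all higher (1.60% of all genes in that fit). Between the 2 day 7 libraries that stood apart on that component the median was 1.61. Without the 2 libraries with the fewest genes detected it was 0.85, with 24 of 28 above 0, and between those 2 libraries it was 2.97.

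Where these genes are expressed in the gland was read from the single-cell libraries of whole glands of 3 vehicle rats of the SD strain, as a description. Cells were put in a class when they held at least 3 markers of it and fewer than 3 of any other. Each class had 6 markers, of which the tables held 5 for Schwann cells and for endothelium and all 6 for the others. Schwann-marker cells were 61 of 16424 cells (0.371%, exact 95% interval 0.284% to 0.477%), 80 of 12615 (0.634%) and 90 of 11789 (0.763%), with intervals that cover counting error only. Pairs of these libraries shared 212 to 276 cell barcodes, 1.80% to 2.34% of the smaller library. Mean levels, in CPM of UMIs, were 3052 for MBP in Schwann-marker cells and at most 124 in the other 6 classes, 356 against at most 3.31 for PLLP, and 109 against at most 4.61 for DHH. GFRA3 had 283 against at most 61.3 and ENTPD2 1594 against at most 196.5. SOX10 was at 470.2 in Schwann-marker and at 102.9 in basal-marker cells, which sets it apart from the myelin genes. LGALS4 was low everywhere, from 0 in Schwann-marker cells to about 3 in luminal cells.

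**Figure D2:**
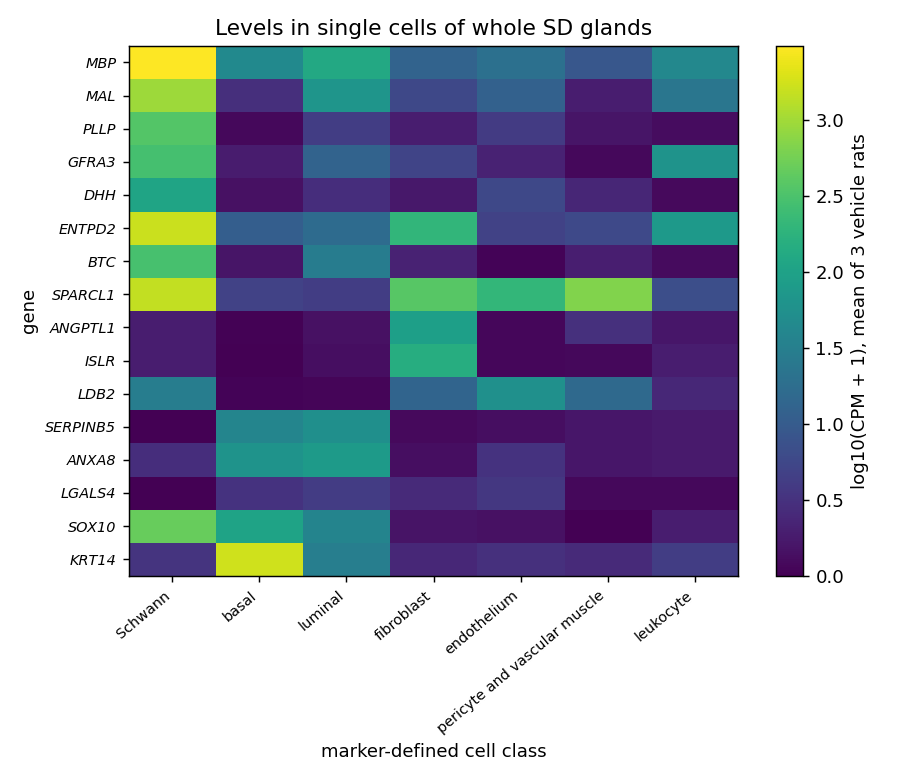
Level of 16 genes in 7 marker-defined cell classes of whole SD glands, as log10(CPM + 1), mean of 3 vehicle rats. The 8 genes from MBP to SPARCL1 are brightest in Schwann-marker cells, ANGPTL1 and ISLR in fibroblast-marker cells, KRT14 in basal-marker cells, and LGALS4 is dark in every class.

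Of the 51 genes DESeq2 called higher, 50 were in the single-cell tables. Of these, 28 (56%) had their highest mean level in Schwann-marker cells and 13 (26%) in fibroblast-marker cells, whereas among all genes tested the shares were 20.6% and 10.5%. Among the 735 genes higher at an unadjusted limma p under 0.05 the shares were 24.4% and 25.6%, and among the 136 lower genes 28.7% and 4.65%. Of the 10 largest higher genes by the naming rule, 4 were highest in Schwann-marker and 5 in fibroblast-marker cells. A list of 50 genes taken from Schwann-marker cells alone, without the markers that defined them, had 26 higher (4.70% of all genes) and 0 lower (0.869%) at an unadjusted p under 0.05. It shares genes with the Schwann list above, MBP, PLLP and DHH among them, so the counts of these lists are not separate. Its median log2 fold change was 1.80, and 1.07 without the 2 libraries with the fewest genes. Sorted basal cells of ACI rats at day 0 were also profiled as single cells, after the authors had removed cells with few keratin reads or any PTPRC read. That filter can remove Schwann cells, so the counts here do not give how many pass the sort. Among the cells kept, 9 of 9880 held at least 3 Schwann markers. Of these, 3 held no other class, 1 in a vehicle and 2 in a TGFBRi rat, and 6 also held the markers of another class, 1 in a vehicle and 5 in TGFBRi rats. In sorted bulk cells, a change in the number of cells of a type and a change in RNA per cell cannot be told apart, and the part of Schwann cells in the bulk differences was not tested.

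Fibroblast genes differed in the same direction. Of 17 tested, 10 were higher (4.70% of all genes) and 0 lower (0.869%) at an unadjusted p under 0.05. The groups were apart upward in 10 (7.90%) and downward in 1, FBLN1 (3.03%). DESeq2 called 4 higher (0.385% of all genes with an adjusted p), and the median log2 fold change was 1.98. ANGPTL1, a secreted angiopoietin-like protein, had 13.2, 35.9 and 11.4 normalized counts in vehicle rats and 165.9, 117.8 and 169.8 in treated rats. ISLR, a surface protein of mesenchymal cells, had 21.3, 26.3 and 64.5 against 154.4, 483.9 and 355.6. The proteoglycan genes DCN (decorin; log2 fold change 2.15) and LUM (lumican; 1.98) also separated the groups. COL1A1, the main fibrillar collagen chain, did not, and its counts were 18638, 28682 and 1849 in vehicle and 4987, 164985 and 190694 after TGFBRi. The 2 lowest COL1A1 values belong to the 2 libraries apart on the first component. The summed share of the 17 genes overlapped between the groups, at 0.123% to 0.664% in vehicle and 0.315% to 2.95% in treated rats (exact permutation p = 0.3, two-sided). Without the 4 libraries apart the list median was 2.37, and it was 2.05 without the 2 libraries with the fewest genes. Of the fibroblast genes, ISLR reached 149 CPM in fibroblast-marker cells and at most 0.895 elsewhere. A list of 50 genes taken from fibroblast-marker single cells had 26 higher and 0 lower at an unadjusted p under 0.05, with a median of 1.74. It shares genes with the 17, ISLR and ANGPTL1 among them. Its summed share did not overlap between the groups, at 0.176% to 0.265% in vehicle and 0.293% to 0.584% in treated rats (exact permutation p = 0.1, two-sided).

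Matrix genes overlap with that list. Of 28 fibrillar matrix genes 8 were higher (4.70% of all genes) and 0 lower (0.869%) at an unadjusted p under 0.05, with a median log2 fold change of 1.11 that went to 0.30 without the 2 libraries with the fewest genes. LOX, which cross-links collagen, had 80.8, 113.1 and 32.2 in vehicle rats and 142.9, 716.4 and 995.4 in treated rats. The contractile genes of myoepithelium had 3 of 18 higher and 0 lower, and all 18 log2 fold changes were above 0 (58.7% of all genes). Their median was 0.63, and 0.36 without vehicle replicate 1. Among them LIMS2, an adaptor at integrin attachments, had 63.1, 187.6 and 67.6 against 321.5, 361.9 and 265.7, with a DESeq2 adjusted p of 0.0370. In the whole-gland single cells LIMS2 had its highest mean level in Schwann-marker cells.

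Markers of other cells were followed over whole lists. Of the 18 leukocyte genes 1 was higher at an unadjusted p under 0.05 (4.70% of all genes), and their summed share was 0.0104% to 0.0139% in vehicle and 0.0134% to 0.0173% in treated rats. PTPRC, which encodes the CD45 used in the gate, had 36.7, 28.9 and 0 normalized counts in vehicle and 41.5, 88.4 and 23.5 after TGFBRi. The 14 endothelial genes had 0 genes at an unadjusted p under 0.05 in either direction, and a summed share of 0.00812% to 0.0435% in vehicle against 0.0186% to 0.0501%. Pericyte genes had 1 of 10 higher and skeletal muscle genes 2 of 8. The groups were apart upward in 4 of the 18 leukocyte and 3 of the 8 skeletal muscle genes (7.90% of all genes). They were so in 1 of the 10 pericyte and 0 of the 14 endothelial genes. The medians of these lists also lay above 0, as did 58.7% of all genes. Skeletal muscle genes had a median log2 fold change of 1.73 (8 of 8 above 0; 0.95 to 2.07 with each rat left out), leukocyte genes 1.08 (15 of 18; 0.69 to 1.24) and pericyte genes 1.01 (10 of 10; 0.55 to 1.64, the lowest without vehicle replicate 3). Endothelial genes had 0.61 (10 of 14), which was -0.06 without vehicle replicate 3 and -0.03 without the 4 libraries apart. Lists taken from single cells were read as well. The pericyte list had the groups apart upward in 9 of 48 genes and downward in 1, with 40 above 0. The leukocyte list had 8 of 50 upward and 0 downward, with 44 above 0. The endothelial list had 3 of 50 upward and 2 downward, with 30 above 0. Over all genes 7.90% were apart upward and 3.03% downward. The part of these cells in the differences was not tested.

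**Figure D3:**
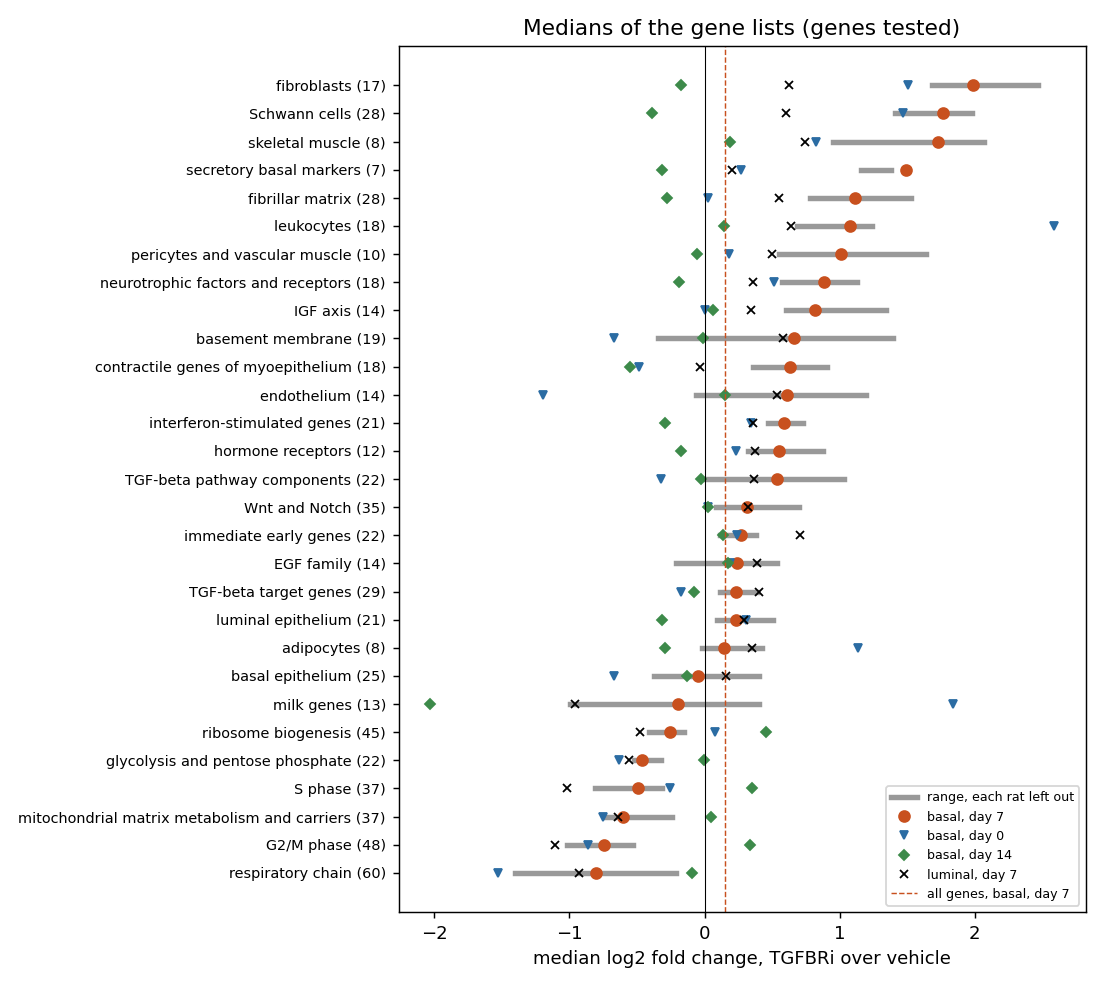
Median log2 fold change (TGFBRi over vehicle) of each gene list other than those taken from single cells at day 7 in basal cells (circles), with a bar from the lowest to the highest value when each rat was left out, and the medians at day 0, day 14 and in luminal cells at day 7. Fibroblast (1.98), Schwann (1.76) and skeletal muscle (1.73) genes stand farthest to the right of the median of all genes (dashed line, 0.15), and respiratory chain genes farthest to the left.

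Basal epithelial genes lay on both sides of 0 over all 6 rats. Of 25 tested, 0 were higher (4.70% of all genes) and 4 lower (0.869%) at an unadjusted p under 0.05, and the median log2 fold change was -0.05, with 12 above 0 (58.7%). With each rat left out the median ranged from -0.38 (without vehicle replicate 3) to 0.41 (without TGFBRi replicate 1), and it was -0.69 without the 2 libraries with the fewest genes (6 of 25 above 0). A list of 50 genes taken from basal-marker single cells had 3 higher and 2 lower, 29 above 0 and a median of 0.10 (0.05 without vehicle replicate 3). The summed share of the 25 genes was 2.16% to 3.07% in vehicle and 1.90% to 1.98% in treated rats, a ratio of 0.76 (exact permutation p = 0.1, two-sided). The sum gives most weight to the highest genes, and KRT15 alone held 1.03% of counts in vehicle replicate 1. The genes given next are ones with lower values after TGFBRi. SERPINB5 encodes maspin, a serpin of epithelial cells. It had 876.7, 407.7 and 1141 normalized counts in vehicle rats and 288.0, 174.6 and 109.3 in treated rats, a log2 fold change of -2.06 (SE 0.58), with a limma adjusted p of 0.548 and a DESeq2 adjusted p of 0.0749. ANXA8, an annexin, had 472.1, 297.2 and 654.0 against 142.9, 108.3 and 106.8, and DESeq2 called it lower (adjusted p 0.0412). The other gene DESeq2 called lower was PPP2R1A, a scaffold subunit of the phosphatase PP2A, with 3945, 4060 and 4498 in vehicle and 2967, 2993 and 2841 in treated rats, a log2 fold change of -0.50. Without vehicle replicate 3 DESeq2 called 0 genes lower, so neither ANXA8 nor PPP2R1A was called. Their limma log2 fold changes were then -1.66 and -0.45. The keratin KRT5 had 27044, 22902 and 29449 against 17522, 17231 and 14241. In these 4 genes every treated rat was below every vehicle rat. In the single cells SERPINB5 was highest in luminal-marker (53.98 CPM) and basal-marker cells (38.0).

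A set of 7 markers of the secretory basal cells described in this study was also examined. The study names these genes in describing those cells from samples of this series, with PROCR and SORBS2 for a subcluster of them. The set of 7 was put together here with earlier results of these data known. It is not independent evidence of its direction. At an unadjusted p under 0.05, 4 of the 7 were higher (4.70% of all genes) and 0 lower (0.869%), and the median log2 fold change was 1.49. PROCR, the protein C receptor, had 636.6, 1402 and 1157 normalized counts in vehicle and 1979, 2551 and 2179 in treated rats, and SORBS2 had 107.2, 281.4 and 48.9 against 286.9, 483.9 and 607.8. SPARCL1, a secreted matrix protein, had 740.2, 1282 and 367.0 against 2462, 2951 and 7522. All 3 separated the groups, SORBS2 by the smallest margin. In the whole-gland single cells SPARCL1 was highest in Schwann-marker cells (1479 CPM) and next at 666.5 in pericyte-marker cells.

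Genes of cell division lay mostly below 0 (44 of 48 G2/M and 29 of 37 S phase genes, beside 41.2% of all genes). Of 48 G2/M genes tested, 0 were higher and 9 lower (0.869% of all genes) at an unadjusted p under 0.05, 12 separated the groups downward (3.03%), and the median log2 fold change was -0.74. TOP2A, which untangles replicated DNA, had 2249, 1083 and 1801 in vehicle rats and 571.5, 831.0 and 786.9 in treated rats, and the proliferation antigen gene MKI67 had 1513, 1360 and 1290 against 577.2, 1020 and 913.0. TACC3, a spindle protein, had 1346, 706.6 and 1793 against 599.1, 524.9 and 630.5. The 37 S phase genes had 0 higher and 3 lower (median -0.49, and -0.31 without vehicle replicate 3). Neither list held a gene called by limma or by DESeq2 on all 18 libraries, and without the 4 libraries apart DESeq2 called 1 G2/M gene lower (HMMR). The G2/M median was -0.62 without those 4 libraries and -0.41 without the 2 with the fewest genes. In luminal cells of the same rats the medians at day 7 were -1.10 for G2/M and -1.02 for S phase genes.

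The metabolic lists had medians below 0, and nearer to 0 without vehicle replicate 3. Of the 37 genes of mitochondrial matrix metabolism 5 were lower (0.869% of all genes) and 0 higher at an unadjusted p under 0.05 (median -0.60), of the 22 of glycolysis and the pentose phosphate path 3 were lower (median -0.46), and of the 45 of ribosome biogenesis 3 were lower (median -0.25). Without vehicle replicate 3 the medians were -0.24, -0.32 and -0.15, and without the 2 libraries with the fewest genes -0.15, -0.17 and -0.10. TKT, the transketolase of the pentose phosphate path, had 6490, 4279 and 8513 in vehicle and 3743, 3370 and 3016 in treated rats. The 60 respiratory chain genes had a median of -0.81, with 0 passing an unadjusted p under 0.05 in either direction. With each rat left out that median ranged from -1.40 (without TGFBRi replicate 1) to -0.21 (without vehicle replicate 3). It became 0.18 without the 2 libraries with the fewest genes and was -0.75 without the 4 libraries apart on the first component. In luminal cells of the same rats the respiratory chain median was -0.93. The luminal medians were -0.64 for mitochondrial matrix metabolism, -0.56 for glycolysis and pentose phosphate and -0.48 for ribosome biogenesis.

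The pathway that the inhibitor targets gave few differences 7 days after dosing. Among 22 TGFβ pathway components 1 was higher and 0 lower at an unadjusted p under 0.05, a share near the 4.70% of all genes. The list median was 0.54, and 0.01 without vehicle replicate 3. The 1 gene, the ligand TGFB2, had 125.6, 194.6 and 99.8 normalized counts in vehicle rats and 242.0, 256.7 and 311.0 in treated rats. TGFBR1, the target kinase, overlapped widely, at 557.3, 1021 and 61.3 against 126.7, 1089 and 1194, with the low values in the 2 libraries apart on the first component. Of 29 TGFβ target genes 2 were higher and 0 lower, and the list median was 0.23 beside 0.15 over all genes, and 0.39 beside 0.04 without vehicle replicate 3. The 2 were TGFBI, an extracellular matrix protein (149.8, 325.3 and 148.7 against 343.3, 841.5 and 1294), and CYR61, a matricellular protein (log2 fold change 0.65).

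Neurotrophic factors and their receptors lay mostly above 0 (15 of 18). At an unadjusted p under 0.05, where 4.70% of all genes were higher and 0.869% lower, 3 were higher and 1 lower, and the median was 0.89 (0.58 without vehicle replicate 3). The receptor subunit GFRA2 had 88.8, 77.2 and 18.7 against 115.2, 177.8 and 427.1, beside GFRA3 above. The lower gene was ARTN, whose product artemin is the ligand of GFRA3, with 44.1, 40.3 and 72.8 normalized counts in vehicle rats and 18.4, 10.5 and 26.1 in treated rats and a limma adjusted p of 0.857. In the EGF family 1 of 14 genes was higher and 2 lower (median 0.24, -0.06 without vehicle replicate 3 and 0.07 without the 4 libraries apart). BTC (betacellulin) had 2.94, 0.877 and 0 against 20.7, 17.9 and 17.7, and EREG (epiregulin) had 394.3, 171.8 and 508.5 against 170.5, 45.2 and 58.8. In the single cells BTC was highest in Schwann-marker cells, at 299 CPM against at most 27.9. Of 21 interferon-stimulated genes 3 were higher and 0 lower (median 0.59), among them MX1, an antiviral GTPase, at 10.3, 3.51 and 5.20 against 31.1, 48.4 and 16.8. Of 14 genes of the IGF axis 3 were higher, and IGF1 had 68.3, 141.2 and 161.2 against 554.2, 386.1 and 438.0.

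By the naming rule for large differences (unadjusted p of 0.01 or less, groups apart, a mean of at least 50 normalized counts), the 10 largest higher genes were MYOG, CPXM2, CADM2, ISLR, ANGPTL1, SFRP4, BCHE, LOX, OLFML1 and DHH, with log2 fold changes from 3.76 down to 2.62. MYOG, a transcription factor of skeletal muscle, had 5.14, 45.6 and 17.7 in vehicle rats and 191.3, 235.6 and 289.2 in treated rats. Only 9 lower genes met the rule, from SERPINB5 (-2.06) to DYRK3 (-0.92), with the mitotic kinesins KIFC1 (-1.30) and KIF20A (-1.05) and the Wnt ligand WNT10A (-1.20) among them. Every one of these genes kept its direction in every alternative fitted. Since the rule required groups apart, leaving out a rat could not reverse a direction in limma.

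The same lists were read at day 0 and day 14, in other rats. The Schwann list had a median log2 fold change of 1.47 at day 0 and -0.39 at day 14, beside 0.30 and 0 over all genes. Its summed share was 0.178% to 0.287% in vehicle and 0.611% to 0.774% in treated rats at day 0, and 0.0499% to 0.1296% against 0.0402% to 0.123% at day 14. The groups were therefore apart at days 0 and 7 and overlapped at day 14, and vehicle rats were highest at day 0. The treated day 0 libraries held 6562769, 4194912 and 15136358 reads, against 12382292 to 18781674 in the vehicle ones, so depth differed between those groups. For MBP the vehicle rats had 1207, 1664 and 2495 normalized counts at day 0 and 583.4, 488.8 and 1038 at day 14, and the treated rats 4191, 9412 and 6689 and then 473.0, 595.2 and 386.5. The fibroblast median was 1.51 at day 0 and -0.17 at day 14, and the G2/M median was -0.86 and 0.34. At day 0 the leukocyte (2.59) and milk gene (1.84) lists had higher medians than the Schwann list. At day 14 those lists were at 0.14 and -2.03.

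**Figure D4:**
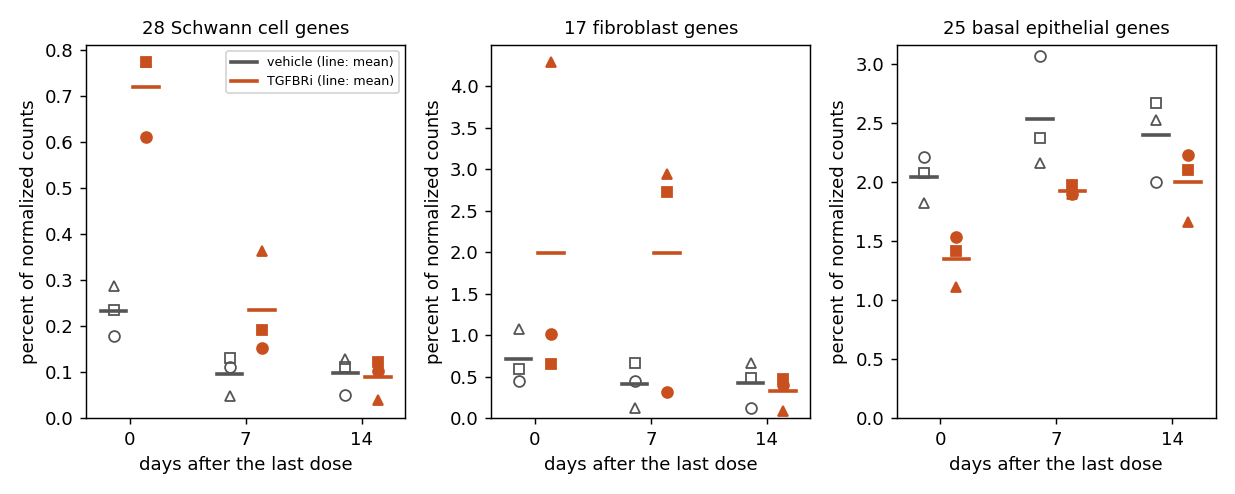
Share of all normalized counts (percent, linear axis) held by the Schwann (28 genes), fibroblast (17) and basal epithelial (25) lists in each basal library at days 0, 7 and 14 after the last dose, with open symbols for vehicle, filled symbols for TGFBRi and a line at each mean of 3 rats. The Schwann share at day 7 is 0.0474% to 0.131% in vehicle and 0.152% to 0.363% after TGFBRi, and at day 14 the groups overlap.

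The difference between the day 7 effect and the other days was tested across all genes. Against day 14, limma called 2 genes (0.0128% of 15643), with 695 (4.44%) at an unadjusted p under 0.05. One was GFRA3, whose effect at day 7 exceeded that at day 14 by 3.92 (log2; SE 0.57, adjusted p 0.0370), with day 14 values of 317.1, 189.1 and 433.8 in vehicle and 96.8, 143.8 and 84.6 in treated rats. The other was ADH7, an alcohol dehydrogenase that acts on retinol, with a difference of 5.68 (SE 0.85, adjusted p 0.0370). ADH7 had 5.87, 4.38 and 2.08 normalized counts in vehicle and 46.1, 35.8 and 38.7 in treated rats at day 7, and 5.77, 7.43 and 8.62 against 0, 1.47 and 0 at day 14. Without vehicle replicate 3 limma called 0 genes for this difference. Against day 0, limma called 0 genes (0%), with 918 (5.87%) at an unadjusted p under 0.05, edgeR called 0 and DESeq2 47. The myelin genes named above were thus not shown to differ in effect between days 0 and 7 by limma.

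Basal and luminal cells of the same 6 rats were compared at day 7. Limma without a block called 0 of 15824 genes for a difference in effect (389, or 2.46%, at an unadjusted p under 0.05). With the rat as a block, which the sorting of both fractions from 1 rat provides, limma called 27 (0.171%), of which 24 had the more positive effect in basal and 3 in luminal cells. The fit with the block was not repeated without vehicle replicate 3. Without a block and without that rat, limma called 0 genes. Among the 27, BTC had the smallest p. Its values in luminal cells were 53.8, 129.4 and 120.6 in vehicle and 36.1, 24.99 and 23.7 in treated rats, the reverse order of the basal values above, and the difference in effect was 5.07 (block adjusted p 0.00122). SERPINB5 showed the opposite pattern, with 728.6, 1102 and 1344 in luminal cells of vehicle rats and 2694, 2390 and 2146 in those of treated rats, a difference of -3.29 (block adjusted p 0.00268). PPP2R2B, a regulatory subunit of PP2A, was 0.757, 4.12 and 0 in luminal vehicle cells and 70.999, 41.3 and 66.2 in luminal treated cells, beside 283.4, 206.0 and 404.5 against 179.7, 118.9 and 90.8 in basal cells.

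The Schwann genes PMP22 (difference 2.46) and PLLP (2.41) were among the 27, and so was ENTPD2 (1.90). MBP was not among them, and in luminal cells it was at 755.8, 1479 and 1160 in vehicle and 1345, 2023 and 1600 in treated rats, with overlapping groups. DHH was not among the 27 either, with a log2 fold change of 2.73 in luminal cells beside 2.62 in basal cells. The luminal median of the Schwann list was 0.60. GFRA3 was higher in level in luminal than in basal cells, at 316.6, 1280 and 487.1 in vehicle and 1326, 1574 and 1075 in treated rats, and was not among the 27. LGALS4 in luminal cells was 3.79, 4.12 and 14.3 against 28.4, 20.2 and 41.8, again with every treated rat above every vehicle rat, and was not among the 27 either. TGFB2 (1.70) and ACVR2B (1.98), a ligand and a receptor of the TGFβ superfamily, were called higher in effect in basal cells.

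**Figure D5:**
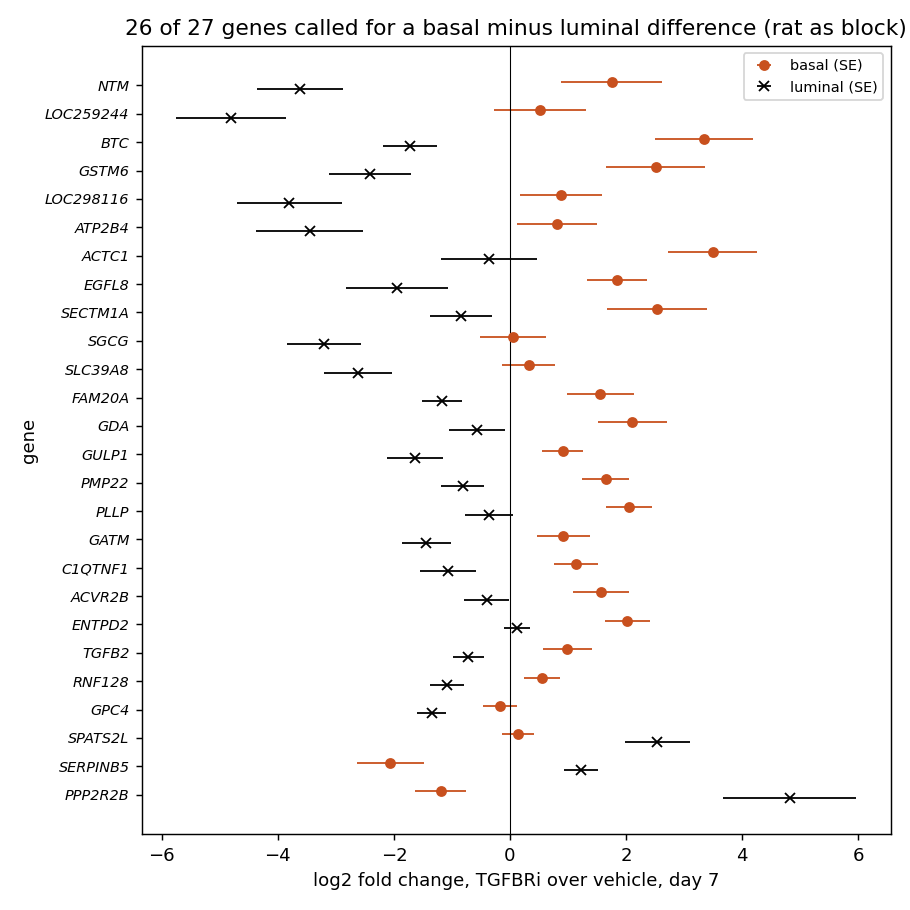
Log2 fold change (TGFBRi over vehicle) at day 7 in basal (circles) and luminal cells (crosses), 3 rats a group, of 26 of the 27 genes called for a difference between the fractions with the rat as a block; bars are standard errors. BTC, PMP22, PLLP and ENTPD2 lie to the right in basal cells, and SERPINB5 and PPP2R2B lie to the left in basal and to the right in luminal cells.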

How the data were processed

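RNA-seq libraries were made by the authors with the SMARTer v4 low-input kit. Per the study's methods and the submitters' processing notes, reads were aligned to rn6 with STAR 2.5.1b, counted per gene with HTSeq without strand and normalized with DESeq2 1.30.1, so reads of overlapping or antisense genes cannot be told apart. The deposited values are a signal, read counts divided by a size factor. Whole reads were recovered from their steps (100% of 483768 values above 0 in 36 samples came out whole at a tolerance of 0.001), and 0 of 15826 rows named no gene. The deposited single-cell files hold UMI counts.

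Genes with a summed normalized count of at least 10 over the 18 basal libraries were tested with limma 3.58.1 (R 4.3.3; trended, robust) on log2(value + 1), 6 groups sharing 1 estimate of spread, with Benjamini-Hochberg adjusted p of 0.05 or less as a call. A design matrix over 36 basal and luminal libraries served the comparison of fractions. edgeR 4.0.16 and DESeq2 1.42.0 were run on recovered reads as alternatives, with TMM scaling, other pseudocounts and filters, thinning to 13447580 reads (3 day 0 libraries held fewer) and leaving out each rat. Marker sums were compared by exact permutation. Fold changes understate those of low genes.

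Replicate numbers within the basal groups name rats and pair nothing. Basal and luminal samples of 1 rat are truly paired; their correlation in limma was 0.519. Scripts were tested on simulated data with known changes, where DESeq2 recovered more changed genes than limma but made more false calls.

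Genes were named by rule: all limma calls, the 10 smallest DESeq2 p-values per direction among DESeq2 calls, and the 10 largest differences per direction with unadjusted p of 0.01 or less, groups apart and a mean of 50 or more. Members, lists and tests were chosen with earlier results of these data known. The labels name 1 rat per sample, so the spread is between rats. In the single-cell tables no doublet caller was run, and classes were rebuilt from markers. 1 gene that the list counts include is not reported here by name.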

Additional observations from a re-analysis of the deposited data

Results flagged for a closer look

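The effect of TGFBRi on GFRA3 in basal cells differed between days 7 and 14 by 3.92 on the log2 scale (limma adjusted p 0.0370 for the difference). At day 7 all 3 treated rats lay above all 3 vehicle rats, and at day 14 all 3 lay below, at 96.8, 143.8 and 84.6 normalized counts against 317.1, 189.1 and 433.8. The effect on ADH7 differed by 5.68 (limma adjusted p 0.0370), with higher values in 3 of 3 treated rats at day 7 and lower values in 3 of 3 at day 14, where 2 of the 3 treated libraries were at 0.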

How the results depend on the processing

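For the day 7 effect limma called 1 gene, also with TMM scaling, pseudocount 5, no filter or a mean of at least 10. It called 0 with pseudocount 0.5, with day 7 libraries alone, after thinning, and, as alternatives chosen after seeing the data, without the 2 libraries with fewest genes (458 at an unadjusted p under 0.05) and without the 4 apart on the first component (1551). edgeR called 0 and DESeq2 53 (51 higher, 2 lower). DESeq2 called 227 without those 4 libraries and 20 without vehicle replicate 3. Leaving out each rat gave 0 to 1 limma calls. For the day 7 effect against day 0, DESeq2 called 47 and the other fits 0. Against day 14, limma called 2, edgeR 1, DESeq2 29, pseudocount 5 gave 0 and leaving out each rat 0 to 1. For basal against luminal cells, pairing by rat (the replicate block) raised the calls from 0 to 27, and leaving out each rat without it gave 0 to 1. The causes were not tested. Of the list medians over the alternatives 659 moved by less than the spread between rats and 25 by more. That spread was wide, at 1.54 for basement membrane, 1.08 for TGFβ components and 0.93 for endothelium. The reversals of sign in those lists, given below, are therefore among the 659, and the count does not show that a sign was kept. Of the named genes' fold changes 511 kept direction and side of the threshold, 58 crossed the threshold (47 into a call, 11 out of one) and 0 reversed. The groups of these genes were apart, so leaving out a rat could not reverse a direction in limma. Among lists, without vehicle replicate 3 or without the 2 libraries with fewest genes the medians of basement membrane (0.66) became -0.34 and -0.77, and of endothelium (0.61) -0.06 and -0.14. The TGFβ components list (0.54) went to 0.01 and -0.44. With classes set by at least 2 markers, 20 in place of 28 DESeq2-called genes were highest in Schwann-marker cells. The median over all genes was 0.15 in the normalization of the files, 0.07 with TMM and 0.02 to 0.29 with each rat left out. With 3 rats a group, limma had little power for small changes.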

Other observations

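Some further genes stood out once the 4 libraries apart on the first component were left out, a choice made after their values had been seen, and are given as values. DESeq2 then called CCL2, CCL7 and CXCL10, chemokines that attract monocytes or T cells, higher. CCL7 had 179.9, 334.9 and 676.9 normalized counts in the vehicle rats and 1725, 1067 and 1392 in the treated rats of day 7. ADAMTS5, a protease of matrix proteoglycans, had 58.7, 54.4 and 36.4 against 71.4, 188.3 and 264.8 and was called higher by DESeq2 on all 18 libraries as well (adjusted p 0.0412). PTX3, a secreted pattern recognition protein, had 265.8, 572.5 and 640.5 against 1252, 1538 and 1149 (DESeq2 adjusted p 0.000331 in that fit and 0.0108 on all 18 libraries).

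The same fit called the basal keratin KRT15 lower, at 133188, 62445 and 120151 in vehicle rats and 63977, 31068 and 25836 in treated rats, of which only TGFBRi replicate 1 overlapped the vehicle range. Of 75 cytosolic ribosomal protein genes with an adjusted p in that fit, 16 were called lower and 0 higher, beside 0.743% and 1.60% of all genes. Over all 18 libraries 78 of 81 such genes had a log2 fold change below 0 (41.2% of all genes), with a median of -0.66, but 0 passed an unadjusted p under 0.05 and 0 separated the groups. Their median was -1.35 at day 0, -0.38 at day 14 and -0.54 in luminal cells at day 7.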
